A study of Mus musculus with 26 samples.

Results

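Nuclear genes for the subunits of oxidative phosphorylation were followed in bulk RNA sequencing libraries of sorted cardiac stromal cells from mice. The members were every gene symbol in the count table that begins with Nduf followed by a, b, c, s or v, or with Uqcr, Cox4 to Cox8 or Atp5, which gave 88 genes of 24421. They comprise 36 genes of complex I, 7 genes of complex I assembly factors, 8 of complex III, 20 of complex IV, 15 of complex V, and Atp5s and Atp5sl, which carry the prefix but are kept apart from the subunits. Of the 88, 85 had enough counts to be tested in every comparison. Cox7b2, Cox8c and Ndufs5 were at 0 counts in all 26 libraries, where a count of 0 allows up to 3 counts in a library. Ndufs5 encodes a constitutive complex I subunit, and since the annotation used for counting is not given in the sources used here, its 0 was not read as a level. The subunits that the mitochondrial genome encodes were not analysed here.

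The mice were C57BL/6 animals of the strain B6.129S4-Pdgfratm11(EGFP)Sor/J, and every group, the undamaged controls included, carried the PDGFRa H2BEGFP reporter, a green fluorescent protein fused to a histone and expressed from the Pdgfra locus. Sorted CD45-/CD31-/GFP+ cells were divided into gates by SCA-1, whose gene is Ly6a. Hearts were undamaged (5 SCA-1-positive and 4 SCA-1-negative libraries) or were taken after a left anterior descending artery had been tied off (LAD ligation, a model of myocardial infarction), at day 7 (1 positive, 1 negative and 4 libraries whose gate the labels do not give), day 14 (2 and 2) or day 28 (4 positive and 3 negative). Whether any 2 libraries share an animal is not stated, so a p describes only how much these libraries vary, which may be technical. Summed gene counts ran from 6792786 to 48836726 in a library. File names fall into 2 kinds, with or without a shared code before the replicate, here called prefixed and unprefixed. What the code stands for is not given in the sources used here. Undamaged and day 28 hearts have libraries of both kinds, all day 14 libraries are prefixed, and at day 7 the positive and negative libraries are unprefixed while the 4 without a gate are prefixed. The file names of these 4 do give a gate, positive for 1A and 4A and negative for 1B and 4B. The lowest numbers of genes with a count (12325 to 12977, against 14041 to 16013 in the others) were in 3 undamaged libraries, SCA-1-negative A6, SCA-1-negative B7 and SCA-1-positive B7, all prefixed. In the day 28 SCA-1-positive replicate E2, 55.8% of reads lay outside genes, against 5.53% to 18.7% elsewhere. The sort could be read in the counts, given as CPM (counts relative to the TMM-scaled library total): Ly6a was at 280 to 1284 CPM in undamaged positive libraries and 18.8 to 91.9 CPM in negative ones, Pdgfra was at 342 to 810 CPM in all libraries, and Ptprc, which encodes CD45, was at 0 to 2.05 CPM.

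Oxidative phosphorylation passes electrons from NADH and succinate through complexes I, II and III and cytochrome c to oxygen at complex IV, and the proton gradient that is built up drives ATP synthesis at complex V. Most subunits are encoded in the nucleus, made in the cytosol and imported, whereas a core set is made inside the mitochondrion, so that assembly needs products of both genomes. Several complex IV subunits exist as paralogs with different tissue or oxygen dependence: Cox4i2 and Ndufa4l2 are known from hypoxic and vascular mural cells, Cox6b2 from testis, and Cox6a2, Cox7a1 and Cox8b from heart and skeletal muscle. Cardiac fibroblasts, unlike cardiomyocytes, are not rich in mitochondria, and enter an activated, matrix-producing state after infarction.

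Many promoters of this set are known to hold sites for ETS-family factors, NRF1 and oestrogen-related receptors, and the windows below show a member that rose after injury and 2 that fell. A window of 250 bases before the gene start was found in the RefSeq table (GRCm38.p6) for 70 of the 88 members. Capitals mark matches on either strand to 4 motifs: CCGGAAG, an ETS core (CTTCCGG when read from the opposite strand), GCGCATGC for NRF1 (GCATGCGC from the opposite strand), AAGGTCA for an oestrogen-related receptor (TGACCTT from the opposite strand) and ACGTG, the core of a hypoxia-inducible factor site (CACGT from the opposite strand). The last is also part of other factors' sites such as the E-box in the window of Atp5l.
Cox6b2 (chr7:4753095-4753344, minus strand): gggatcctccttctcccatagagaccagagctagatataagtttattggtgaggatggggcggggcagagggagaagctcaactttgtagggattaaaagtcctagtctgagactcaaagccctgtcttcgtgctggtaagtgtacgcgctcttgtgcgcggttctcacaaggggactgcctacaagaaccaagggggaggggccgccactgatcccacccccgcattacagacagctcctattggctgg
Atp5l (chr9:44920743-44920992, minus strand): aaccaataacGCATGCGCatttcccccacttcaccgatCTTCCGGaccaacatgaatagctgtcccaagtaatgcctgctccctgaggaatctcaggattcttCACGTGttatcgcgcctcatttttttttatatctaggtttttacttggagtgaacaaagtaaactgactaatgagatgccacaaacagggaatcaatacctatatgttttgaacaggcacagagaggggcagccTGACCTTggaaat
Ndufa9 (chr6:126849145-126849394, minus strand): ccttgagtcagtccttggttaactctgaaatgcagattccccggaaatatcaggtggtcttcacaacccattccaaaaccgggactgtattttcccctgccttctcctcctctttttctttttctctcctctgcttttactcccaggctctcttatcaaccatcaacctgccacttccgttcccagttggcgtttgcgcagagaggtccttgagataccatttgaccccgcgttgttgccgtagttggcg
The Atp5l window held all 4 of these motifs, and those of Cox6b2 and Ndufa9 held none. Atp5l is not typical of the set: no other of the 70 windows held more than 2. Across the matched members, the ETS letters were in 11 of 70 windows (15.7%, against 6.91% of 32851 RefSeq windows), the NRF1 letters in 8 (11.4% against 2.26%), the receptor letters in 5 (7.14% against 4.08%) and the hypoxia letters in 13 (18.6% against 16.6%). The YY1 letters AAGATGGC were in 0 of 70, against 1.56% of all windows.

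Members differed widely in level. Scaled by transcript length, the highest median over the 26 libraries was that of Cox4i1, the ubiquitous isoform of complex IV subunit 4, at 309 CPM per kilobase (229 to 632). Next came Atp5b, the catalytic beta subunit of ATP synthase, at 251 CPM per kilobase, Cox6c at 179, Uqcrh at 173, Cox8a at 170 and Uqcrc1 at 161. Length was the median over all protein-coding transcripts of a gene in GENCODE M21, incomplete ones not removed, so this order is approximate. For Uqcrc1 this length was 533 nucleotides and the median before scaling 86.1 CPM, so its place in the order is uncertain. The muscle isoforms were at the other end: Cox6a2 had a median of 0.727 CPM per kilobase, Cox8b 1.77 and Cox7a1 2.28, and Cox4i2 (3.93) and Cox6b2 (3.99) were also low. All members together took 0.344% to 0.802% of a library's gene counts. Their transcripts are short, with a median of 659 nucleotides against 2027 for all genes with a length.

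After injury, the members as a set had their lowest median level at day 7. Each member's log2(CPM + 0.5) was turned into a z-score over the 26 libraries, and the scores were averaged over the tested members in each library. The mean z was -0.44 to 1.58 in undamaged libraries (median 0.14), -1.03 to -0.19 at day 7 (median -0.48), -0.29 to 0.69 at day 14 (median 0.27) and -1.12 to 0.64 at day 28 (median 0.30). The 6 day 7 libraries were all below 0, but their range overlapped the lower undamaged and day 28 libraries and the lowest of day 14. The means did not follow the medians at the later times, at 0.25 ± 0.65 (SD, n = 9) in undamaged libraries, -0.54 ± 0.35 (n = 6) at day 7, 0.23 ± 0.51 (n = 4) at day 14 and 0.00 ± 0.64 (n = 7) at day 28. Complexes I, III, IV and V followed the same order of medians at day 7 and undamaged: -0.58 against 0.11 for complex I, -0.53 against -0.01 for complex III, -0.38 against 0.11 for complex IV and -0.57 against 0.43 for complex V. For the complex I assembly factors the medians were both -0.13. In bulk samples such as these, fewer cells of a type and less RNA per cell cannot be told apart. The mean z of 96 cytosolic ribosomal protein genes, a set of short transcripts outside the rule, had the same order of medians, 0.70 in undamaged libraries and -0.46 at day 7, where it ranged from -0.79 to -0.21.

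**Figure D1:**
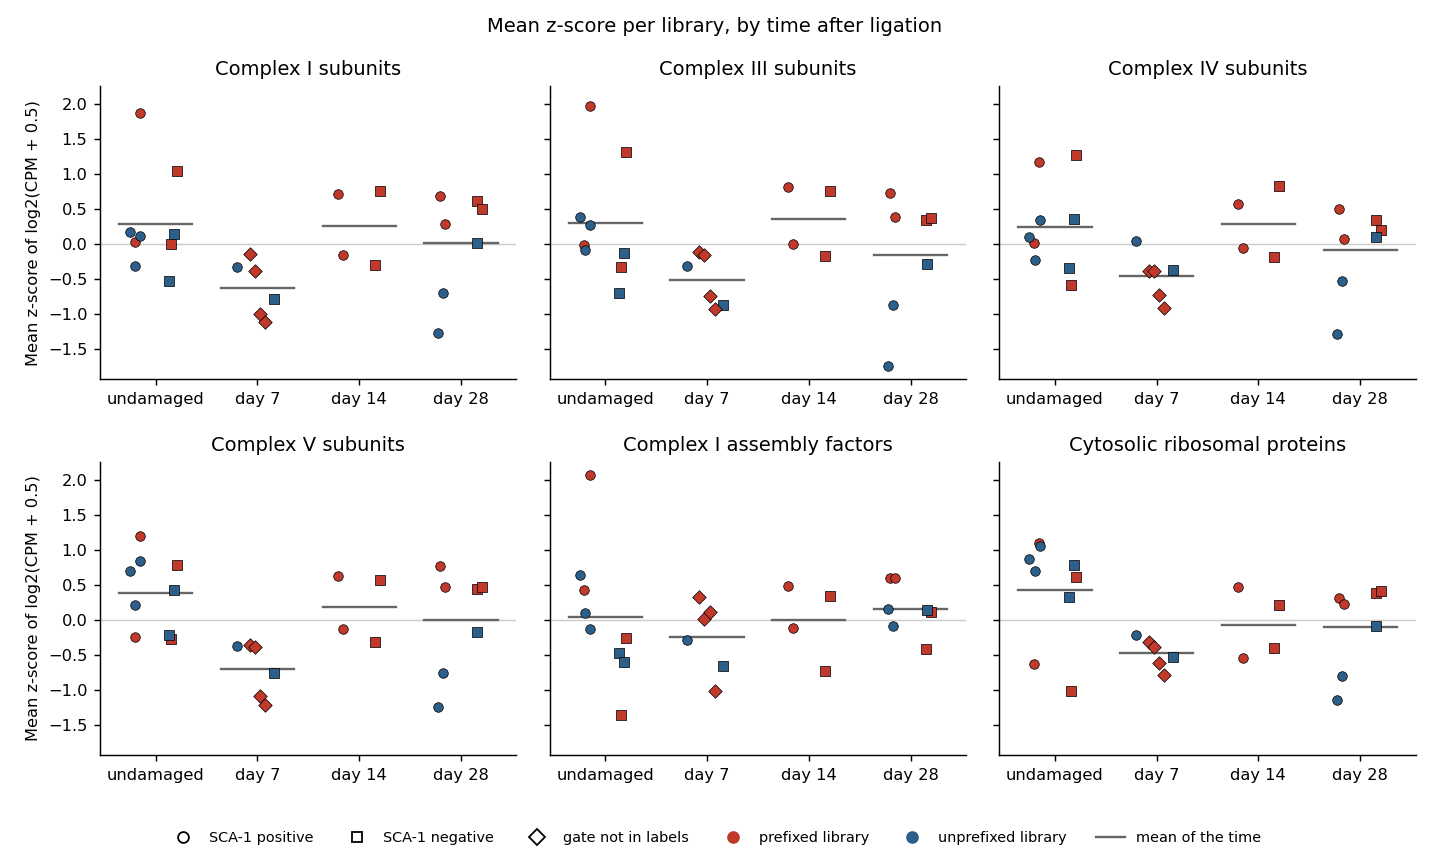
Mean z-score (vertical axis, no unit) of the members of complexes I, III, IV and V, of the complex I assembly factors and of the cytosolic ribosomal protein genes in each library, by time (horizontal axis). Circles are SCA-1-positive, squares SCA-1-negative and diamonds libraries without a gate in the labels, red is prefixed and blue unprefixed, and grey lines are means of a time. Day 7 libraries lie low in the panels of complexes I, III, IV and V, and at day 28 the unprefixed libraries lie below the prefixed ones in the panels of complexes I, III and V.

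At day 7, 20 of the 85 tested members fell and 2 rose against undamaged hearts, by edgeR's quasi-likelihood test with Benjamini-Hochberg adjustment over 13392 genes (adjusted p under 0.05). Among all genes tested, 11.2% fell and 11.5% rose. The members' median log2 difference was -0.35, against -0.04 over all genes, and 80 of 85 members were below 0 (7140 of 13392 over all genes). The median was -0.37 in complex I, -0.31 in complex III, -0.39 in complex IV, -0.41 in complex V and -0.22 in the assembly factors. Complex II, whose 4 genes are all nuclear, had a median of -0.28, and 1 of the 4 fell (Sdhc, a membrane anchor, by 0.35 ± 0.11 (SE), adjusted p = 0.028).

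In complex I, 8 of 35 tested members fell. Ndufab1 encodes the acyl carrier protein, which is part of complex I and also serves mitochondrial fatty acid and lipoate synthesis (chr7:122085403-122101886, GRCm38, minus strand). It had 6.64 to 20.9 CPM in undamaged libraries (median 17.2) and 4.85 to 5.57 CPM at day 7 (median 5.24). Every day 7 library was below every undamaged one, although 3 of the 4 prefixed undamaged libraries were themselves low, at up to 10.04 CPM. The log2 difference was -1.51 ± 0.27 (adjusted p = 0.000164). Ndufb9, an accessory subunit of the membrane arm, went from 50.3 to 126 CPM (median 62.2) to 32.9 to 48.6 CPM (median 41.4) without overlap, a difference of -0.83 ± 0.19 (adjusted p = 0.00198). Ndufa9, which binds at the junction of the arms, went from 39.98 to 68.6 CPM (median 45.6) to 27.3 to 44.5 CPM (median 33.0), with overlap, and fell by 0.56 ± 0.14 (adjusted p = 0.00547). Ndufb8, Ndufv2, Ndufs7, Ndufa11 and Ndufa7 differed by -0.47 to -0.75. All of these calls were lost in unprefixed libraries alone and without the 3 undamaged libraries with the fewest detected genes. They held in prefixed libraries alone. Of these 3 fits, the Ndufb9 call was lost only in unprefixed libraries. Ndufv2 and Ndufs7 are core subunits that carry iron-sulphur clusters. The other core subunits followed were not called: Ndufv1, which binds the flavin, was at -0.38 ± 0.15 (adjusted p = 0.073) and Ndufs1 at -0.01 ± 0.13 (adjusted p = 0.97, interval of 2 SE from -0.26 to 0.24).

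In complex III, 3 of 8 members fell. Uqcr10, a small accessory subunit, had 22.6 to 98.0 CPM in undamaged libraries (median 37.0) and 21.6 to 30.9 CPM at day 7 (median 25.2), which overlap, and differed by -0.86 ± 0.26 (adjusted p = 0.0155). Uqcr11 fell by 0.75 ± 0.24 and Uqcrc2, a core protein, by 0.36 ± 0.12. All 3 calls were lost in unprefixed libraries alone (Uqcr10 at -0.18 ± 0.19) and without the undamaged libraries SCA-1-negative A6 and B7 and SCA-1-positive B7 (Uqcr10 at -0.34 ± 0.17), and all 3 held in prefixed libraries alone. The Rieske iron-sulphur protein gene Uqcrfs1 was at 0.02 ± 0.15 and the core protein gene Uqcrc1 at -0.20 ± 0.12, and neither was called. Outside the symbol rule, cytochrome c (Cycs), the electron carrier between complexes III and IV, fell by 1.12 ± 0.33 (adjusted p = 0.0139), and cytochrome c1 (Cyc1) was at -0.35 ± 0.18 (adjusted p = 0.16).

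In complex IV, 4 of 18 tested members fell and 1 rose. Cox7c, an accessory subunit, was at 7.13 to 53.9 CPM in undamaged libraries (median 37.4) and 11.8 to 30.5 CPM at day 7 (median 19.1), a log2 difference of -0.86 ± 0.29 (adjusted p = 0.0340). The groups overlapped, and the undamaged range reached both above and below that of day 7. Cox7a1 (-1.54 ± 0.54), Cox4i2 (-1.70 ± 0.62) and Cox7a2 (-0.57 ± 0.20) also fell, with adjusted p of 0.0385, 0.0461 and 0.0430. All 3 calls were lost in unprefixed libraries alone and without the 3 undamaged libraries with the fewest detected genes. In prefixed libraries alone, the calls of Cox7a2 and Cox7c were lost. Leaving out 1 library lost the call in 9 of 15 fits for Cox4i2, 8 for Cox7c, 7 for Cox7a2 and 6 for Cox7a1. Cox4i1 was at -0.43 ± 0.19 (adjusted p = 0.10) and Cox5a at -0.14 ± 0.11 (adjusted p = 0.37). Among the 15 genes of complex V, 5 fell. Atp5h encodes subunit d of the peripheral stalk (chr11:115415689-115419962, GRCm38, minus strand). It had 43.2 to 109 CPM in undamaged libraries (median 87.9) and 29.7 to 52.4 CPM at day 7 (median 44.2), and fell by 0.94 ± 0.17 (adjusted p = 0.000164). Most undamaged libraries lay above the whole day 7 range, with a small overlap. Atp5l, subunit g of the membrane part (chr9:44912557-44920742, minus strand), had 5.67 to 21.5 CPM (median 15.3) and then 3.98 to 10.04 CPM (median 7.18), and fell by 1.06 ± 0.23 (adjusted p = 0.00137). Atp5g1, one of the 3 genes for the rotating c-ring, had 30.8 to 48.1 CPM and then 18.7 to 29.1 CPM, without overlap, and fell by 0.63 ± 0.14 (adjusted p = 0.00169). Atp5c1 (-0.41 ± 0.12), the central stalk, and Atp5j2 (-0.56 ± 0.19) completed the 5. The calls of Atp5c1 and Atp5j2 were lost in unprefixed libraries alone and without the same 3 undamaged libraries. Atp5g1 was not called in unprefixed libraries alone, nor Atp5l in prefixed ones. The catalytic head was not called: Atp5b was at -0.27 ± 0.12 (adjusted p = 0.13) and Atp5a1 at -0.18 ± 0.12 (adjusted p = 0.32). Over all complexes, 3 of 85 members (Atp5g1, Ndufb9 and Ndufab1) had every day 7 library below every undamaged one, as did 2.15% of all genes tested.

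**Figure D2:**
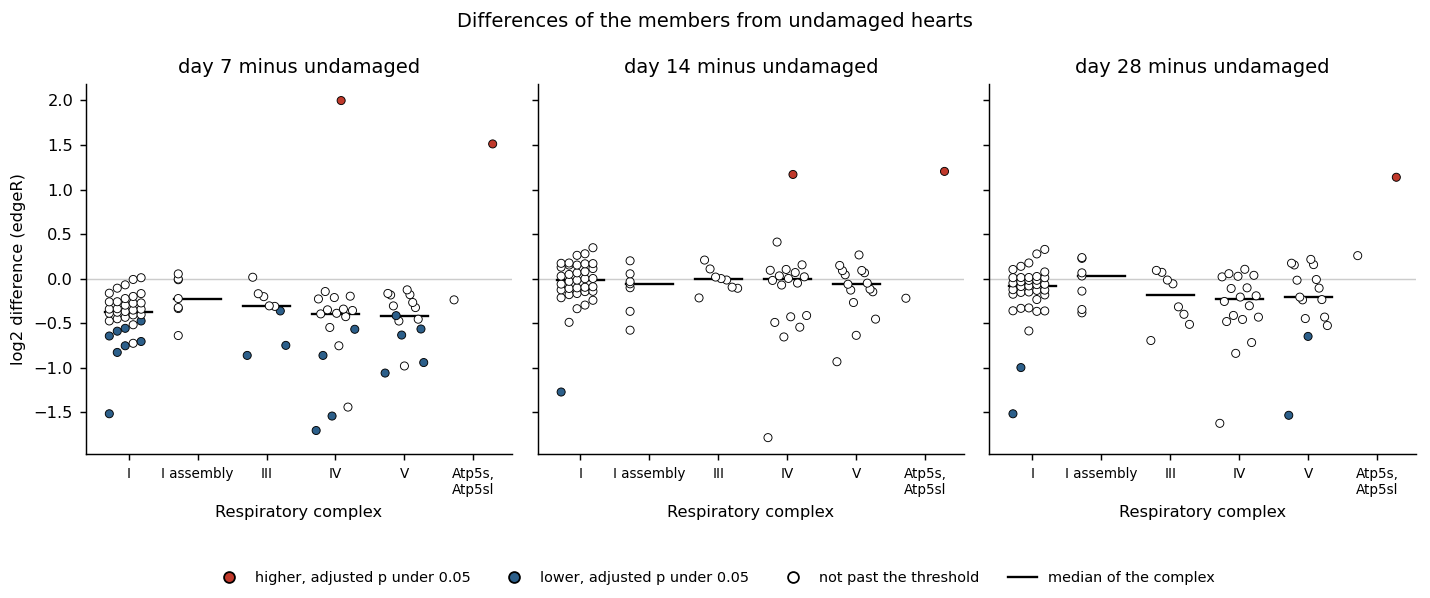
Log2 differences of the tested members from undamaged hearts (vertical axis) at day 7, day 14 and day 28, by complex (horizontal axis). Each point is a member, filled where the adjusted p is under 0.05, and lines are medians of a complex. At day 7 most points lie below 0, with 20 called lower and 2 called higher, and at days 14 and 28 the medians lie near 0.

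Both members that rose at day 7 were low in undamaged hearts. Cox6b2, the paralog of the complex IV subunit Cox6b1 (chr7:4751792-4753094, GRCm38, minus strand), had 0.735 to 2.59 CPM in undamaged libraries (median 1.14), 4.43 to 7.17 CPM at day 7 (median 5.16), 2.51 to 3.68 CPM in the 4 day 14 libraries and 0.342 to 2.0 CPM at day 28 (median 1.13). Every day 7 library lay above every library of the other times, and the day 28 and undamaged ranges overlapped. Against undamaged hearts the log2 difference came to 2.0 ± 0.31 for day 7 (adjusted p = 2.6e-05) and 1.17 ± 0.34 for day 14 (adjusted p = 0.0264), and day 28 was below day 7 by a difference of -2.30 ± 0.34 (adjusted p = 7.0e-05). In that last comparison 1 of 85 members fell (5.5% of all genes tested) and 2 rose (6.13%), Ndufc1 by 0.67 ± 0.19 and Ndufa2 by 0.55 ± 0.18. Between day 14 and day 28, 2 members fell (1.52% of all genes) and 0 rose (1.66%): Cox6b2 at -1.47 ± 0.36 and Ndufa3 at -0.71 ± 0.16. Cox6b2 made up 1.26% to 6.85% of the summed CPM per kilobase of Cox6b2 and Cox6b1 in undamaged libraries and 7.35% to 14.8% at day 7. The lengths used were 435 nucleotides for Cox6b2 and 486 for Cox6b1. Atp5sl, a gene with the complex V prefix whose product is known as a partner in complex I assembly, had 0.243 to 4.19 CPM in undamaged libraries (median 2.94), 6.03 to 8.96 at day 7 (median 7.72), 4.85 to 7.11 at day 14 and 3.33 to 8.74 at day 28 (median 5.33). Day 7 and day 14 lay above the undamaged range and day 28 overlapped it, with log2 differences of 1.51 ± 0.31 (adjusted p = 0.00066), 1.20 ± 0.34 (0.0219) and 1.14 ± 0.30 (0.0217).

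**Figure D3:**
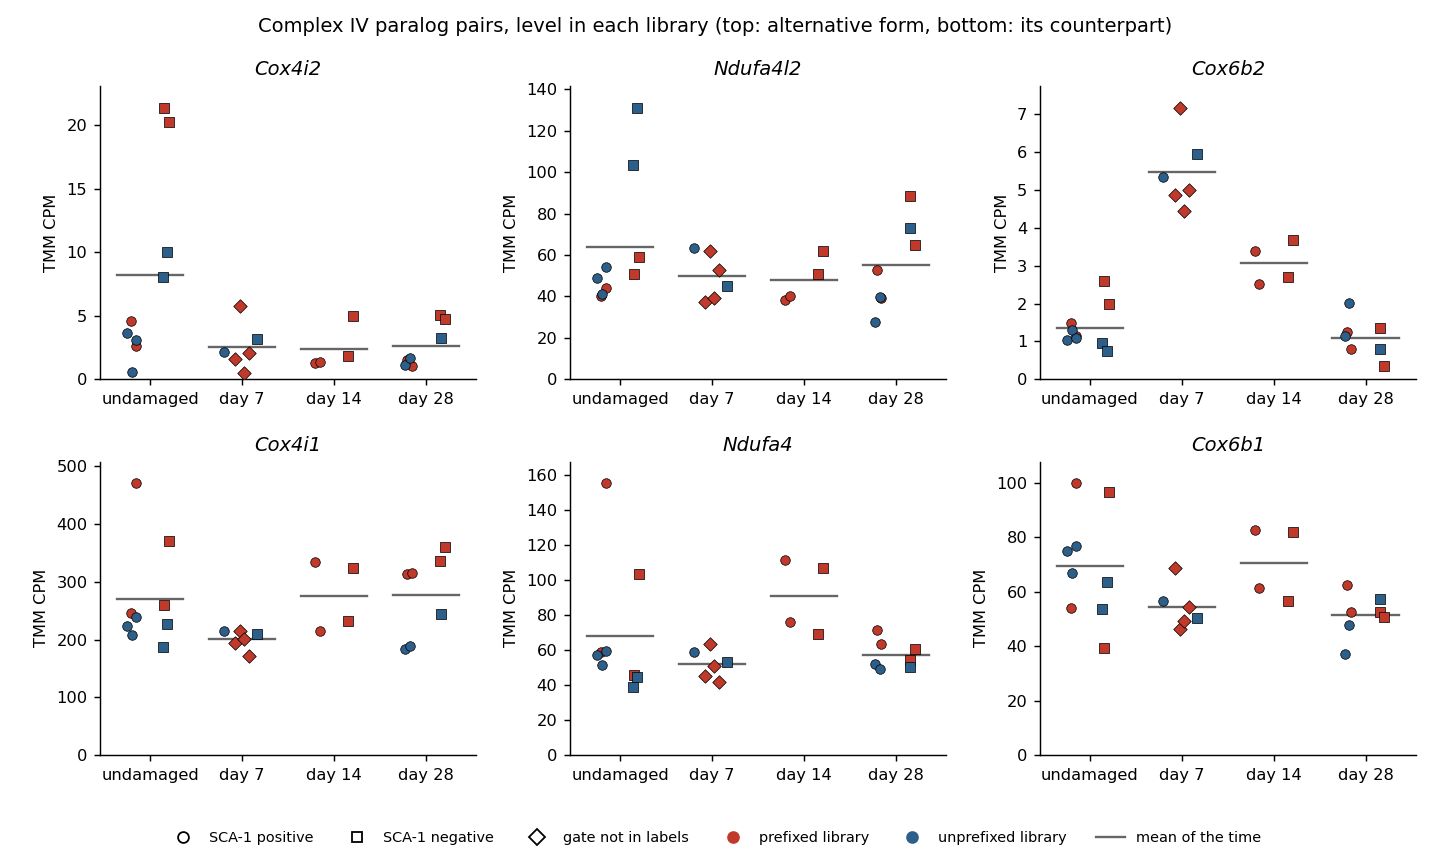
TMM-scaled CPM (vertical axes, from 0) of Cox4i2, Ndufa4l2 and Cox6b2 in the upper row and of their paralogs Cox4i1, Ndufa4 and Cox6b1 in the lower row, in each library by time (horizontal axis), with symbols and colours for gate and kind of file name. Cox4i2 is highest in undamaged SCA-1-negative libraries (8.05 to 21.4 CPM), and Cox6b2 is highest at day 7 (4.43 to 7.17 CPM).

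At day 14, 1 member fell and 2 rose against undamaged hearts, where 3.14% and 5.84% of all genes did, and the median log2 difference was -0.03. Without the 3 undamaged libraries with the fewest detected genes, 4 fell and 11 rose (6.05% and 8.86% of all genes), and the median was 0.13. In prefixed libraries alone, 1 fell and 1 rose (2.83% and 5.67% of all genes), with a median of -0.17. That fit, which takes the undamaged libraries of the same kind as the day 14 ones, called Atp5sl higher and Ndufv1 lower (-0.43 ± 0.13, adjusted p = 0.0474), and did not call Ndufab1 (-0.87 ± 0.38, 0.173) or Cox6b2 (0.77 ± 0.44, 0.311). The 2 that rose over all libraries were Cox6b2 and Atp5sl. The member that fell was Ndufab1, with 5.01 to 8.22 CPM in the 4 libraries and a difference of -1.27 ± 0.31 (adjusted p = 0.00724). Ndufv1, with 43.0 to 48.0 CPM against 51.7 to 80.4 in undamaged libraries, lay wholly below without being called over all libraries (-0.49 ± 0.17, adjusted p = 0.081). At day 28, 4 members fell (1.94% of all genes tested fell) and 1 rose (3.45%), with a median of -0.11. Without the 3 libraries, 6 fell (4.17% of all genes) and 2 rose (4.35%), with a median of 0.04. Over all libraries, Atp5sl was the member that rose. Ndufab1 was at 2.18 to 7.40 CPM (median 6.22) and fell by 1.52 ± 0.25 (adjusted p = 0.00039), which overlapped the lowest undamaged libraries. Atp5g1 had 17.7 to 33.4 CPM (median 24.3) and fell by 0.65 ± 0.13 (adjusted p = 0.00323), and Ndufa12, an accessory subunit of complex I, had 4.10 to 15.6 CPM (median 10.2, against 11.4 to 34.3 undamaged) and fell by 1.00 ± 0.23 (adjusted p = 0.00856). Atp5g2, another c-ring gene, differed by -1.53 ± 0.39 (adjusted p = 0.0174), a value that differed between the kinds of file name. The 8 core or catalytic genes followed throughout (Ndufv1, Ndufs1, Uqcrfs1, Uqcrc1, Cox4i1, Cox5a, Atp5b and Atp5a1) were at -0.08 to 0.28 at day 28, with no call over all libraries. Within a kind, Atp5b fell in unprefixed libraries (-0.47 ± 0.13, adjusted p = 0.0373; 0.32 ± 0.14, 0.152, in prefixed ones) and Atp5a1 rose in prefixed libraries (0.46 ± 0.14, adjusted p = 0.036; -0.30 ± 0.12, 0.121, in unprefixed ones).

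The day 7 result was also fitted within each kind of library, and the difference between these fits was not tested. In prefixed libraries alone (4 undamaged, 4 at day 7), 29 members fell, where 8.81% of all genes did, and 2 rose (10.7%), and the members' median was -0.52. In unprefixed libraries alone (5 and 2), 6 fell, where 7.37% of all genes did, and 2 rose (8.85%), and the median was -0.19. Without the 3 undamaged libraries with the fewest detected genes, a choice made after seeing the data, 9 fell and 2 rose, with a median of -0.20. Of all genes, 12.3% fell and 13.4% rose in that fit, so the 9 of 85 members were no larger a share than the background. Cox6b2, Atp5sl, Atp5h and Ndufa9 passed the test in each of these 3 fits and in the other alternatives fitted on all libraries. For Cox6b2 the log2 difference was 1.57 ± 0.45 in prefixed, 2.46 ± 0.35 in unprefixed libraries and 2.32 ± 0.29 without the 3. For Ndufab1 it was -1.11 ± 0.39 (adjusted p = 0.0515), -1.78 ± 0.24 and -1.61 ± 0.26. Cox7c (-0.07 ± 0.33 against -1.21 ± 0.21) and Atp5g2 (0.22 ± 0.36 against -1.53 ± 0.29) fell in unprefixed libraries, with no call in prefixed ones. Leaving out 1 library at a time gave 13 to 26 called members, with 13 without undamaged SCA-1-negative B7, 13 without day 7 replicate 4B and 14 without the day 7 negative library.

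**Figure D4:**
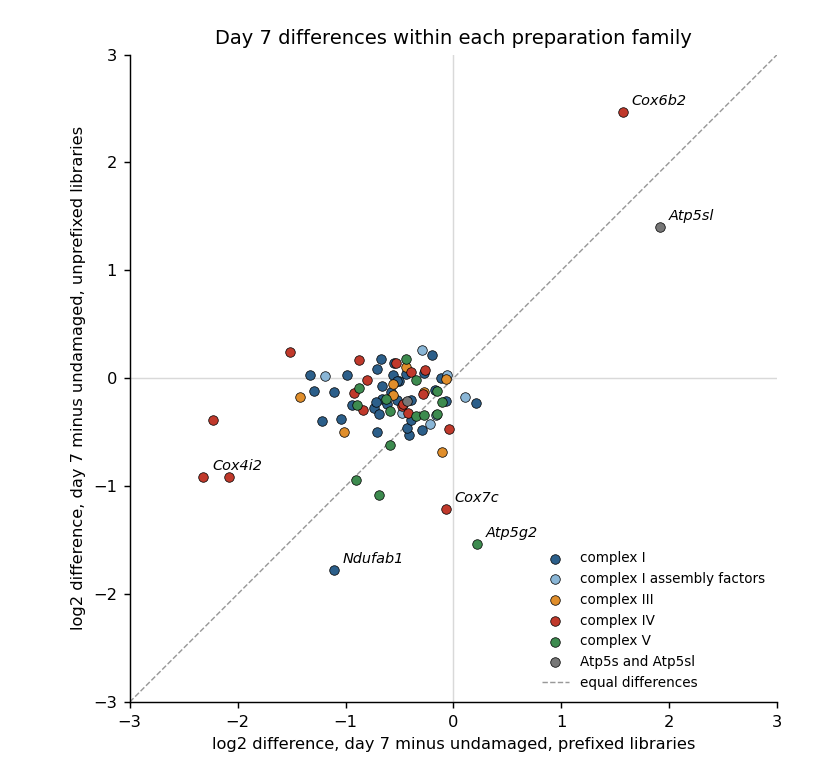
Log2 difference between day 7 and undamaged hearts of each tested member, in prefixed libraries (one axis) against unprefixed libraries (the other axis), with a dashed line where they are equal. Cox6b2 and Atp5sl lie above 0 on both axes, and Cox7c and Atp5g2 lie near or above 0 in prefixed libraries (-0.07 and 0.22) and below -1 in unprefixed ones.

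Genes of other mitochondrial pathways and markers of other cell types were also called at day 7. At day 7, 5 of 18 genes of the tricarboxylic acid cycle fell and 0 rose (Idh3g by 0.37 ± 0.11, Suclg2 by 0.41 ± 0.14), as did 5 of 17 of fatty acid oxidation (Hadhb by 1.11 ± 0.18, adjusted p = 4.1e-05, and Etfa by 0.73 ± 0.14). Of the mitochondrial ribosome, 5 of 48 large and 2 of 29 small subunit genes fell, and of import and cristae genes 4 of 29 (Chchd6, a part of the cristae junction complex, by 0.84 ± 0.25), shares near or below the 11.2% of all genes that fell. Assembly factors outside the symbol rule were mixed, with 3 higher (Ttc19, which acts in complex III assembly, at 0.65 ± 0.16) and 3 lower of 41 (Uqcc1 at -0.51 ± 0.14). Of 15 regulators of mitochondrial biogenesis, only Esrrg, an oestrogen-related receptor, was called (2.23 ± 0.57, adjusted p = 0.0053). Hif1a rose by 1.54 ± 0.17 and Epas1 fell by 0.95 ± 0.15, among 2 higher and 4 lower of 23 hypoxia genes. The cytosolic ribosomal protein genes had 46 of 96 lower and a median of -0.54.

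The summed CPM of 7 epicardial and mesothelial marker genes was 0 to 8.91 in undamaged libraries and 9.02 to 95.6 at day 7, where all 7 rose. Macrophage and leukocyte markers summed to 11.4 to 44.5 and 38.6 to 74.2 CPM (6 of 12 rose), and endothelial markers to 252 to 641 and 139 to 274 CPM (11 of 12 fell). Cardiomyocyte markers summed to 16.8 to 117 CPM in undamaged libraries and 17.2 to 51.9 CPM at day 7 (2 of 13 fell). Mural markers summed to 173 to 653 and 302 to 1175 CPM, and of 11 tested 3 rose (Acta2 by 2.39, Tagln by 2.18 and Cspg4 by 2.22) and 1 fell (Abcc9, at -1.78). Fibroblast markers summed to 81511 to 106764 and 115277 to 142466 CPM, without overlap. Of 12, the collagen genes Col1a1 (2.94), Col3a1 (2.62) and Col1a2 (2.59) rose and 5 fell, among them Gsn (-1.50), Dcn and Tcf21 (-0.92). Pdgfra, from whose locus the sorted reporter is expressed, was also among the 5 (-0.46 ± 0.15, adjusted p = 0.025 by edgeR). The part of these cell types, and of the change among fibroblast genes, in the members' values was not tested.

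In undamaged hearts the SCA-1 gates differed in 3 members: 1 was higher in the positive gate and 2 were lower, of 85. Among the 13812 genes of that fit, the shares were 1.65% and 1.45%, so the counts of members were near those over all genes. Cox4i2, the alternative subunit 4 isoform of complex IV (chr2:152754173-152765037, GRCm38, plus strand), had 3.62, 0.54, 3.10, 4.57 and 2.64 CPM in the positive libraries E1, E3, F3, A6 and B7 and 8.05, 10.03, 21.4 and 20.2 CPM in the negative libraries E5, F3, A6 and B7. All negative libraries were above all positive ones. The log2 difference, positive minus negative, was -2.37 ± 0.45 (adjusted p = 0.0047). Cox4i2 was 4.23% to 7.77% of the summed CPM per kilobase of Cox4i2 and Cox4i1 in the negative gate. In the positive gate it was 0.264% to 1.86%, while Cox4i1 itself was at 0.08 ± 0.27 (adjusted p = 0.93). Ndufa4l2, the paralog of the complex IV subunit Ndufa4 (chr10:127514967-127517154, plus strand, overlapping Shmt2), had 48.7, 41.0, 54.3, 40.2 and 44.2 CPM in the positive and 104, 131, 50.6 and 59.2 CPM in the negative libraries. The negative libraries E5 and F3 stood well above the rest, B7 lay just above the positive range and A6 lay within it. The difference was -0.92 ± 0.23 (adjusted p = 0.032). Ndufaf7, a methyltransferase needed for complex I assembly (chr17:78937136-78948052, plus strand), had 15.4, 13.7, 13.1, 17.4 and 22.9 CPM in the positive and 11.1, 10.4, 9.23 and 9.44 CPM in the negative gate, without overlap, and was higher by 0.71 ± 0.19 (adjusted p = 0.039). The other 6 assembly factors were also above 0 but were not called, and the group's median was 0.67. The 8 core or catalytic genes were at -0.06 to 0.31, none called.

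These gate differences were sensitive to the set of libraries. DESeq2 called the same 3 members and also Cox8b, which edgeR did not call. Cox8b had 0 to 1.01 CPM in the positive and 1.16 to 5.46 CPM in the negative undamaged libraries, low levels without overlap. With the replicate code as a block, 1 member was called, Cox4i2 (-2.29 ± 0.47, adjusted p = 0.018), while Ndufa4l2 was at -0.68 ± 0.18 (0.060) and Ndufaf7 at 0.84 ± 0.25 (0.097). In prefixed libraries alone Cox4i2 was called (-2.54 ± 0.53, adjusted p = 0.043) and Ndufa4l2 was not (-0.38 ± 0.22, 0.45), and in unprefixed libraries alone it was the reverse (Cox4i2 -1.89 ± 0.56, 0.099, and Ndufa4l2 -1.29 ± 0.20, 0.0066). Without the 3 libraries with the fewest detected genes Cox4i2 was at -1.62 ± 0.52 (adjusted p = 0.15) and Ndufa4l2 at -1.36 ± 0.21 (0.0021). Markers of mural cells (pericytes and smooth muscle) summed to 173 to 224 CPM in the positive and 360 to 653 CPM in the negative undamaged libraries, and all 12 had counts. Of the 12, 3 were lower in the positive gate (Notch3 at -2.32, Abcc9 at -1.62 and Vtn at -3.12), and their median difference was -1.40. The part of mural cells in the values of Cox4i2 and Ndufa4l2 was not tested.

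At day 14 and at day 28 no member passed edgeR's test between the gates. At an unadjusted p under 0.05 there were 0 members at day 14 and 5 at day 28, all lower in the positive gate. The share of all genes at that threshold was not set beside these counts, so no excess of members was read from them. DESeq2 called 0 members at day 14 and 1 at day 28, Ndufa4l2. The shares of all genes called higher and lower, positive against negative, were 0.0507% and 0% at day 14 and 0.434% and 0.159% at day 28. Cox4i2 had 1.29 and 1.32 CPM in the positive and 1.84 and 4.98 CPM in the negative libraries at day 14, and 1.03 to 1.65 against 3.24, 5.03 and 4.78 CPM at day 28. The negative libraries were above the positive ones at both times, with differences of -1.38 ± 0.68 and -1.68 ± 0.53 (adjusted p = 0.15 at day 28). Ndufa4l2 at day 28 had 27.6, 39.7, 52.6 and 39.2 CPM in the positive and 73.2, 88.3 and 64.8 CPM in the negative libraries, again without overlap (-0.93 ± 0.26, adjusted p = 0.11). The test of whether the gate difference itself changed from undamaged called 0 members at either time, and 0% of all genes. For Cox4i2 the change was 0.99 ± 0.81 at day 14 and 0.69 ± 0.70 at day 28. An unadjusted p under 0.05 was reached by 0 and 1 members, again without the share of all genes beside them. At day 7 there was 1 library of each labelled gate and no test: 71 of 85 members had a higher value in the positive library, with a median log2 difference of 0.189, where 6617 of 13392 genes did. Cox4i2 was at 2.15 CPM in that library and 3.16 CPM in the negative one. By file name, 1A and 4A are positive, with a mean z of all members of -0.19 and -0.80 and Cox4i2 at 1.57 and 0.47 CPM. The negative 1B and 4B had a mean z of -0.30 and -1.03 and Cox4i2 at 5.75 and 2.07 CPM.

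Prefixed and unprefixed libraries of the same time differed in many members. In undamaged hearts, with the gates held apart, 15 members were higher in prefixed libraries (4.41% of all genes were) and 3 were lower (7.31%), and the median difference was 0.37. Of the 15, 9 belong to complex I. The highest were Ndufb4 at 1.14 ± 0.25, Uqcr10 at 1.12 ± 0.24 and Ndufa7 at 1.05 ± 0.22, and Cox4i1 was at 0.64 ± 0.16. Atp5g2 was lower, with 26.3 to 30.7 CPM in the 5 unprefixed and 5.76 to 11.9 CPM in the 4 prefixed libraries (-1.73 ± 0.27, adjusted p = 0.00058), as were Cox7c (-1.27 ± 0.27) and Ndufa4l2 (-0.60 ± 0.19). Cardiomyocyte markers summed to 41.6 to 117 CPM in the prefixed and 16.8 to 31.7 CPM in the unprefixed undamaged libraries, with 5 of 15 higher (Myl2 at 2.40, Mb at 2.16), and their part in the members' values was not tested. Leaving out 1 library gave 6 to 33 called members, with 6 without SCA-1-positive B7, 9 without SCA-1-negative B7, 7 without SCA-1-negative E5, 33 without SCA-1-positive A6 and 29 without SCA-1-negative A6.

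At day 28, 9 members were higher in prefixed libraries (4.19% of all genes were) and 0 were lower (2.41%), and the median was again 0.37. Here the catalytic genes were among them: Atp5a1 had 326, 338 and 370 CPM in the unprefixed and 486, 488, 550 and 563 CPM in the prefixed libraries, and Atp5b had 359, 415 and 452 against 536, 605, 613 and 641 CPM. Neither gene overlapped between the kinds, and the differences were 0.57 ± 0.13 (adjusted p = 0.012) and 0.53 ± 0.13 (0.024). Lack of overlap was not particular to them: 37 of 85 members lay wholly above in prefixed libraries and 3 wholly below. The share over all genes was not counted. One of the 3 unprefixed libraries was SCA-1-positive E2, with 55.8% of reads outside genes. Cox4i1 (0.66 ± 0.19), Ndufv1 (0.65 ± 0.19), Cox6a1 (0.62 ± 0.16) and Atp5g2 (1.47 ± 0.34) were also higher. The ribosomal protein genes had 13 of 98 higher and 2 lower, with a median of 0.50. Leaving out 1 library gave 1 to 7 called members, with 1 without SCA-1-positive B4, 2 without SCA-1-positive B6, 3 without SCA-1-positive E2 and 4 without SCA-1-negative B4. For 6 members the difference between the kinds changed from undamaged to day 28, all upward (7.87% of all genes went up and 4.73% down): Atp5g2 by 3.20 ± 0.43 (adjusted p = 6.4e-05), Cox7c by 1.72 ± 0.42, Ndufv1 by 0.79 ± 0.25, Atp5d by 0.78 ± 0.22, Atp5b by 0.76 ± 0.18 and Atp5a1 by 0.75 ± 0.17.

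**Figure D5:**
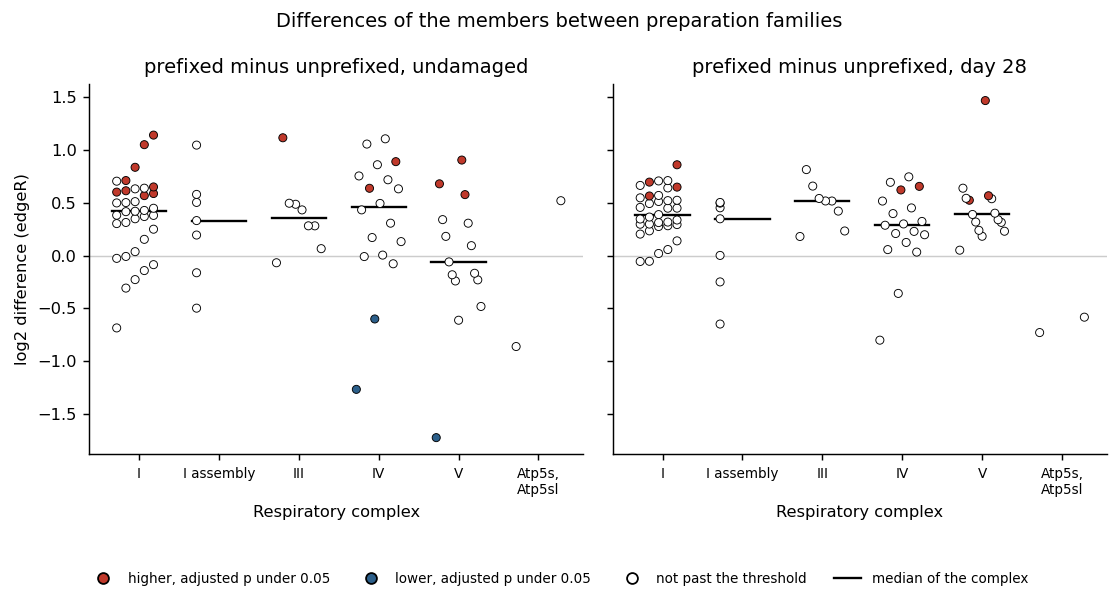
Log2 difference between prefixed and unprefixed libraries (vertical axis) of each tested member by complex (horizontal axis), in undamaged hearts and at day 28. Points are members, filled where the adjusted p is under 0.05, and lines are medians of a complex. In undamaged hearts 15 points are called higher and 3 lower, and at day 28 9 are called higher and 0 lower.

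The day 28 comparison with undamaged hearts depended on these kinds in turn. In unprefixed libraries alone 10 members fell (6.76% of all genes did) and 2 rose (6.34%). In prefixed libraries alone 0 fell (4.73%) and 2 rose (6.84%), Atp5a1 and Atp5d, none of them among the 5 called over all libraries. Atp5g2 had 1.41, 4.01 and 4.14 CPM in the 3 unprefixed and 6.08 to 12.4 CPM in the 4 prefixed day 28 libraries, and its difference from undamaged was -3.10 ± 0.28 in unprefixed and 0.10 ± 0.36 in prefixed libraries. Some reads could be shared with copies elsewhere in the genome: GENCODE M21 lists named pseudogenes of Ndufab1, Atp5l, Atp5c1, Atp5k and Uqcrh, and 39 of the 88 members overlap another annotated gene, so values of these members are less certain.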

How the data were processed

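Per the labels' protocols, TruSeq Stranded mRNA libraries were read as paired ends on a NextSeq instrument. The authors deposited counts, whole numbers of reads per gene symbol, for 26 libraries. The submitters' processing notes name bcl2fastq for reads, the aligners STAR, Bowtie2 and TopHat, then Cufflinks, and the mm10 build. The counting program, its strand setting and its annotation are not given in the sources used here. The 2 entries that name no gene (reads outside genes, 5.53% to 55.8%, and shared reads) stayed out of library sizes and tests. PCR copies were not removed by molecular identifiers.

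Groups came from the labels. The main test was edgeR 4.0.16 (R 4.3.3, limma 3.58.1; quasi-likelihood, TMM, filterByExpr, two-sided, Benjamini-Hochberg over all genes tested, threshold 0.05): time over 26 libraries and 13392 genes, gates over 20 libraries and 13812 genes, and kinds of file name over 16 libraries and 14340 genes with the gates as groups. Errors are standard errors (SE), and intervals are 2 SE wide on each side. CPM are TMM-scaled, and z-scores used log2(CPM + 0.5). Replicate codes found in the positive and the negative gate at one time were taken as pairs for a block, which is an assumption. The 7 pairs' deviations from their group means correlated at 0.259 to 0.424 across genes. Libraries of different codes were not compared in this way, so these values do not show that the codes pair the libraries. The 2 day 14 pairs give the same value by construction (0.407), since each gate has 2 libraries there. Alternatives were DESeq2 1.42.0, its size factors in edgeR, no count filter, each kind alone, the kind or the gate (day 7 gates read from file names) as a term, the block, leaving out 1 library, and, added after seeing the data, leaving out the 3 undamaged libraries with the fewest detected genes. The model code was tested on simulated data. Positions are from GENCODE M21 (GRCm38, 87 of 88 symbols found, Atp5sl was not) and windows from RefSeq.

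The members and gene lists were chosen with earlier results of these data known. Named were paralog pairs, 8 core genes and up to 4 members per complex with the smallest p in each comparison, plus up to 2 genes of each other list. Further called members were named after their values were seen.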

Additional observations from a re-analysis of the deposited data

Results flagged for a closer look

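Of 110 combinations of a measure and a group of libraries, 12 held a library far from the others of its group. Chance flags about 1 in 20 combinations, which is the nominal rate of the cut-off and was not measured here. The measures share members and libraries, so the 12 flags are not independent and their number was not compared with that rate. The undamaged SCA-1-positive replicate B7 stood apart in 6 of the 12: its mean z of all members was 1.576, with the other 4 at -0.16 to 0.30, its mean z was 1.868 for complex I and 1.962 for complex III, and it had 470.5 CPM of Cox4i1 (208 to 246 in the others), 155.1 CPM of Ndufa4 (51.1 to 59.4) and 58.41 CPM of Uqcrfs1 (30.8 to 36.1). It is 1 of the 3 undamaged libraries with the fewest detected genes. Another of these, SCA-1-negative B7, had 103.2 CPM of Ndufa4, with the others at 38.6 to 45.9. The undamaged SCA-1-positive replicate A6 had 6.643 CPM of Ndufab1 (17.2 to 20.9 in the others).

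At day 14, the SCA-1-negative replicate D9 had 16.34% of its reads outside genes (7.64% to 8.78% in the other 3) and 4.983 CPM of Cox4i2 (1.29 to 1.84), and the SCA-1-positive replicate D9 had 47.98 CPM of Ndufv1 (43.0 to 43.7). At day 28, the SCA-1-positive replicate E2 had 70.11 CPM of Ndufs1 (53.6 to 55.2).

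For 6 members the log2 difference between prefixed and unprefixed libraries changed from undamaged hearts to day 28 by a test of that change with edgeR (adjusted p under 0.05), where 7.87% of all genes went up and 4.73% down, so that the count is no larger a share than over all genes: Atp5g2 by 3.197, Cox7c by 1.721, Ndufv1 by 0.7916, Atp5d by 0.7838, Atp5b by 0.7554 and Atp5a1 by 0.7496.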

How the results depend on the processing

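Of 1043 alternative values of 60 called member results, 825 kept the direction and the call, 217 kept the direction and lost the call, and 1 reversed: Atp5g2 at day 28 was 0.10 in prefixed libraries alone. The cause of these changes was not tested.

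Counts of called members moved as follows. The gate comparison in undamaged hearts (3) gave 1 in prefixed libraries, 1 in unprefixed libraries, 1 with the replicate block and 1 without the 3 libraries with the fewest detected genes, and 1 to 3 on leaving out 1 library. The replicate block changed no other call among the gate comparisons. The gate comparison at day 28 (0) gave 1 with DESeq2. Day 7 (22) gave 31 in prefixed libraries, 8 in unprefixed libraries and 11 without the 3 libraries, and 13 to 26 on leaving out 1. Day 14 (3) gave 5 with DESeq2, 5 with the gate from file names as a term, 2 in prefixed libraries and 15 without the 3 libraries (11 of them higher), and 1 to 5 on leaving out 1: 5 without undamaged A6 of either gate, 1 without day 14 D1 of either gate. Day 28 (5) gave 9 with DESeq2, 2 in prefixed and 12 in unprefixed libraries and 8 without the 3 libraries, and 4 to 8 on leaving out 1. The kinds of file name gave 6 to 33 in undamaged hearts (18) on leaving out 1, and at day 28 (9) 17 with no count filter, 16 with DESeq2 and 1 to 7 on leaving out 1.

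With 2 libraries a gate at day 14 and 6792786 counts in the shallowest library, differences of members near 1 CPM, such as the muscle isoforms, were measured with wide errors.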
